A study of Scophthalmus maximus with 8 samples.

Results

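The genes described here form a larval plateau in turbot (Scophthalmus maximus), a flatfish. Their read counts were high and nearly equal at 15 and 23 days post hatching (dph), and low both before, at 3 days post fertilization (dpf), and after, at 37 dph. They were picked from the stage means of counts divided by median-of-ratios size factors, here called normalized counts. A gene was taken when the smaller of its 15 and 23 dph means was at least 50 and at least 3 times the larger of its 3 dpf and 37 dph means. In addition the 15 and 23 dph means had to differ by less than 1.4-fold, and no stage mean could reach 20000. Of 21263 genes counted, 17 met these limits. All 17 passed the edgeR filter on low counts, which kept 18987 genes.

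RNA was sequenced from 8 fish, 2 biological replicates at each of 4 stages. The groups were the phylotypic stage (3 dpf), the pre-metamorphic stage (15 dph), the climax of metamorphosis (23 dph) and the post-metamorphic stage (37 dph). Whole animals were used at 3 dpf, while at the 3 later stages the hind part of the body, from the cloaca backwards, was removed. Stage and the part of the body sampled therefore cannot be told apart in any comparison with 3 dpf. No treatment and no genetic change separated the groups.

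Thyroid hormone drives metamorphosis in flatfish, as it does in frogs. The skull, gut, muscle, skin and blood are remodelled, and both eyes of the juvenile end up on the same side of the head. Some vertebrate proteins, globins and myosins among them, have larval and adult forms encoded by different genes. In bulk libraries from such bodies, fewer cells of a type and less RNA per cell cannot be told apart.

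The count tables name genes by Ensembl identifier only. The gene table used here lists 26628 turbot genes of another assembly and 0 Ensembl identifiers, so no member could be given a symbol, a role or a sequence. The members were numbered 1 to 17 from the highest to the lowest larval count, the mean of the 15 and 23 dph normalized counts. Counts also depend on transcript length, so this order is an order of reads and not of transcripts. Member 1 is ENSSMAG00000016088 and member 2 is ENSSMAG00000016568. Whether members share reads with near-identical copies or with overlapping genes was not analysed here.

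The counts on genes ranged from 19077018 to 24633023 per library, with a median of 21101789. The size factors ranged from 0.668 to 1.28. Reads aligned to more than 1 place were 2.52% to 6.999% of aligned entries and were left out of the gene counts by the authors. Scaling to library totals in place of size factors moved the median change over all genes by more than 0.1 on the log2 scale in both comparisons tested here. Its effect is given beside the counts of members in both comparisons and for some single members, and not for the differences between replicates.

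The plateau genes made up a small part of each library, and most of their reads came from 2 genes. They held 0.00478% and 0.00625% of the gene counts at 3 dpf, 0.140% and 0.1498% at 15 dph, 0.105% and 0.119% at 23 dph, and 0.0194% and 0.0207% at 37 dph. Members 1 and 2 together took 62.9% to 67.1% of these reads in the 4 libraries of 15 and 23 dph. At 3 dpf the same pair took 2.71% and 2.22%, and at 37 dph 76.8% and 62.3%. Summed over the other 15 members, the mean normalized count stood at 981 for 3 dpf, 9143 for 15 dph, 8691 for 23 dph and 1583 for 37 dph. The choice of genes fixes this course for every member and so for any sum of them.

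**Figure D1:**
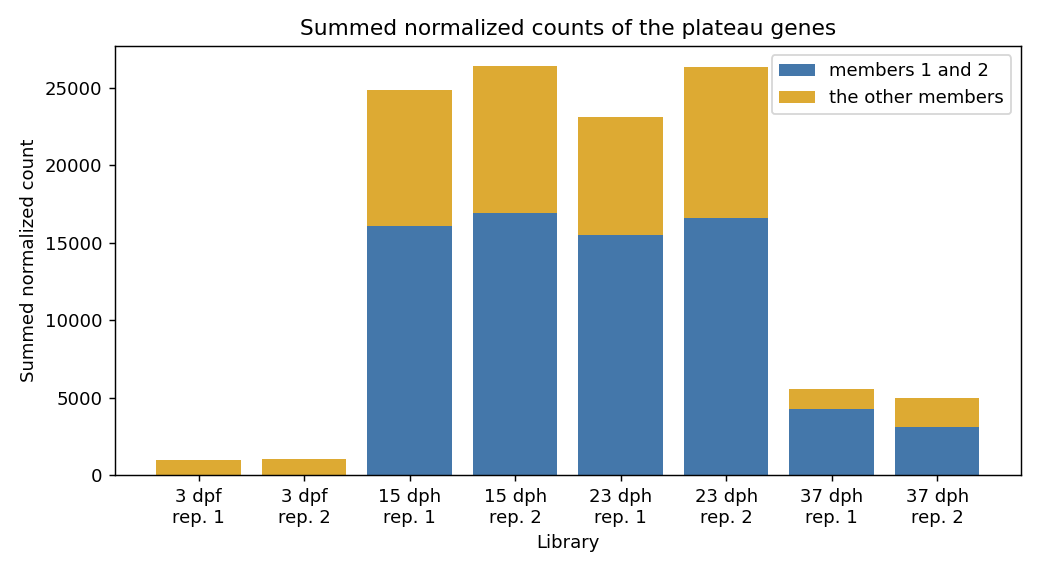
Summed normalized count of the plateau genes (vertical axis) in each of the 8 libraries (horizontal axis, rep. for replicate), with members 1 and 2 in blue and the other 15 members in yellow. The 2 libraries of 3 dpf hold 959 and 1052 summed normalized counts, the 4 libraries of 15 and 23 dph between 23082 and 26378, and the 2 libraries of 37 dph 5582 and 4949.

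In every one of the 17 members all 4 libraries of 15 and 23 dph lay above all 4 libraries of 3 dpf and 37 dph, an arrangement that 7.57% of the 18987 genes showed. The members were chosen on this contrast, so the count is a description. The lowest library of 15 and 23 dph stood 1.81 to 14.2 times above the highest library of 3 dpf and 37 dph, with a median of 2.73 times. That ratio was at least 2 in 16 members and at least 3 in 7.

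**Figure D2:**
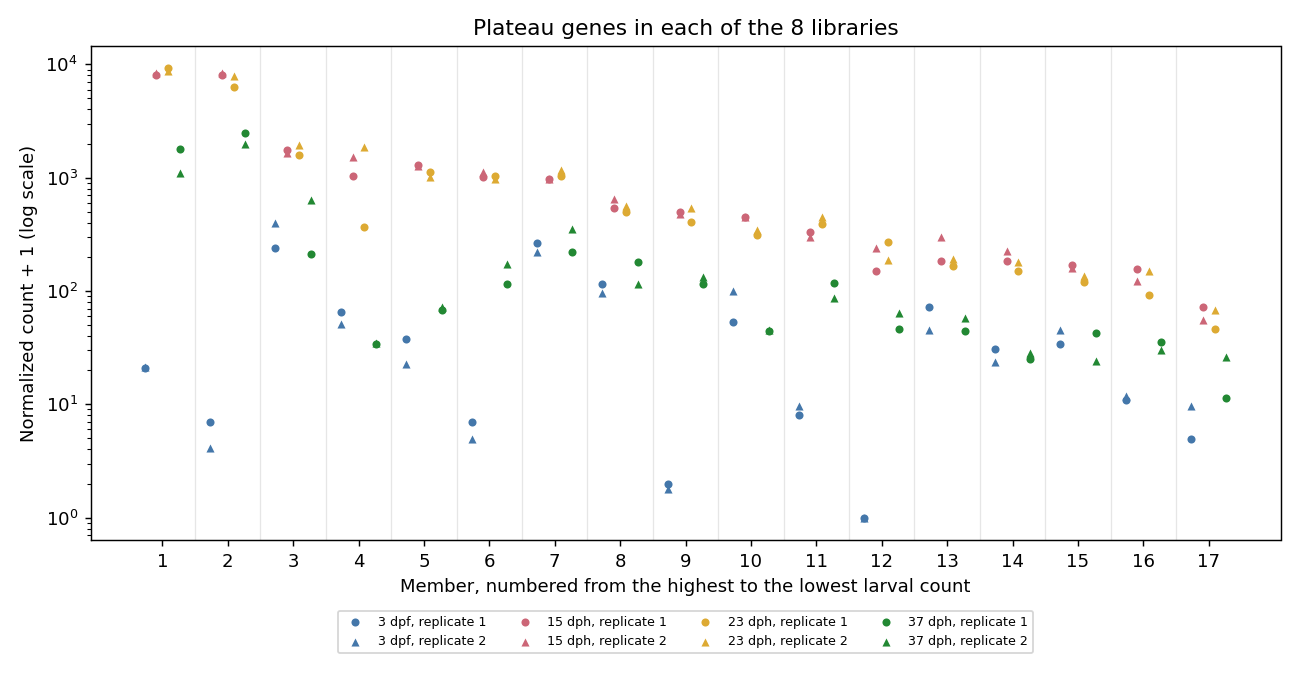
Normalized count plus 1 on a logarithmic axis for each of the 17 members (horizontal axis, from the highest to the lowest larval count) in the 8 libraries, with stages by colour in the order 3, 15, 23 and 37 and replicates by marker. In each member the points of 15 and 23 dph lie above those of 3 dpf and 37 dph, while the 3 dpf points spread from 0 to 396 normalized counts.

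A further 12621 genes met every limit but the 3-fold one, and 67 of them reached 2-fold. The members nearest to that limit had folds of 3.08, 3.11 and 3.16, and the genes just outside it 2.98, 2.95 and 2.86. The gene at 2.98-fold averaged 7.11 normalized counts at 3 dpf and 18138, 14276 and 4795 at the later stages in order of age, more reads than any member. The member closest to the 1.4-fold limit between 15 and 23 dph stood at 1.36-fold, against 1.42-fold for the nearest of 8 genes that failed this limit alone. Member 17 was closest to the minimum of 50, with 56.4 normalized counts against 27.2 in the nearest of 26 genes that failed only the minimum, and 2 genes failed only the upper limit. Over the 17 members the smaller larval mean was 3.08 to 19.4 times the larger of the other means, with a median of 3.79, and 10 members were under 4-fold.

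The choice of genes held the 3 dpf and 37 dph means under the same limit and did not fix which of them was higher. The 37 dph mean was the larger in 12 members, and in 9 with library totals in place of size factors. This was not counted over all genes. Both the 3 dpf and the 37 dph means were used in the choice, and whether it favours 1 sign was not tested. The p values of this comparison, here and for single members below, do not take the choice into account. All genes were not held under that limit, so their shares are given for reference and are not a matched background. The comparison sets the members' counts at 37 dph, where the hind part of the body was removed, beside their counts in the whole 3 dpf animal. In edgeR's quasi-likelihood test over 18987 genes, 9 of the 17 members (52.9%) were higher at 37 dph than at 3 dpf and 0 were lower, with a Benjamini-Hochberg adjusted p under 0.05 and a minimum change of 1 on the log2 scale. Of all genes tested, 27.8% were higher and 20.7% were lower by the same criterion. At an unadjusted p under 0.05, 1 member was lower in edgeR, against 34.8% of all genes. DESeq2 also called 9 members higher and 0 lower, against 26% and 19.3% of the genes it tested. When a minimum of 10 counts was set for each library, which removes members nearly absent at 3 dpf, 3 of 11 members (27.3%) were higher and 0 were lower, against 24.3% and 18.4% of all genes. The median log2 fold change was 1.28 over the members, against 0.03 over all genes. The 2 members at or under 3 counts at 3 dpf stayed above this median when held at the values those counts allow, so they could not move it. With library totals in place of TMM, an alternative added after the data were seen, 7 members were higher and 1 was lower, against 21.1% and 34.7% of all genes. The median of all genes then stood at -0.49 and that of the members at 0.78. Counted by libraries, both 37 dph values lay above both 3 dpf values in 10 members and below them in 2, against 41.3% and 39.8% of all genes.

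**Figure D3:**
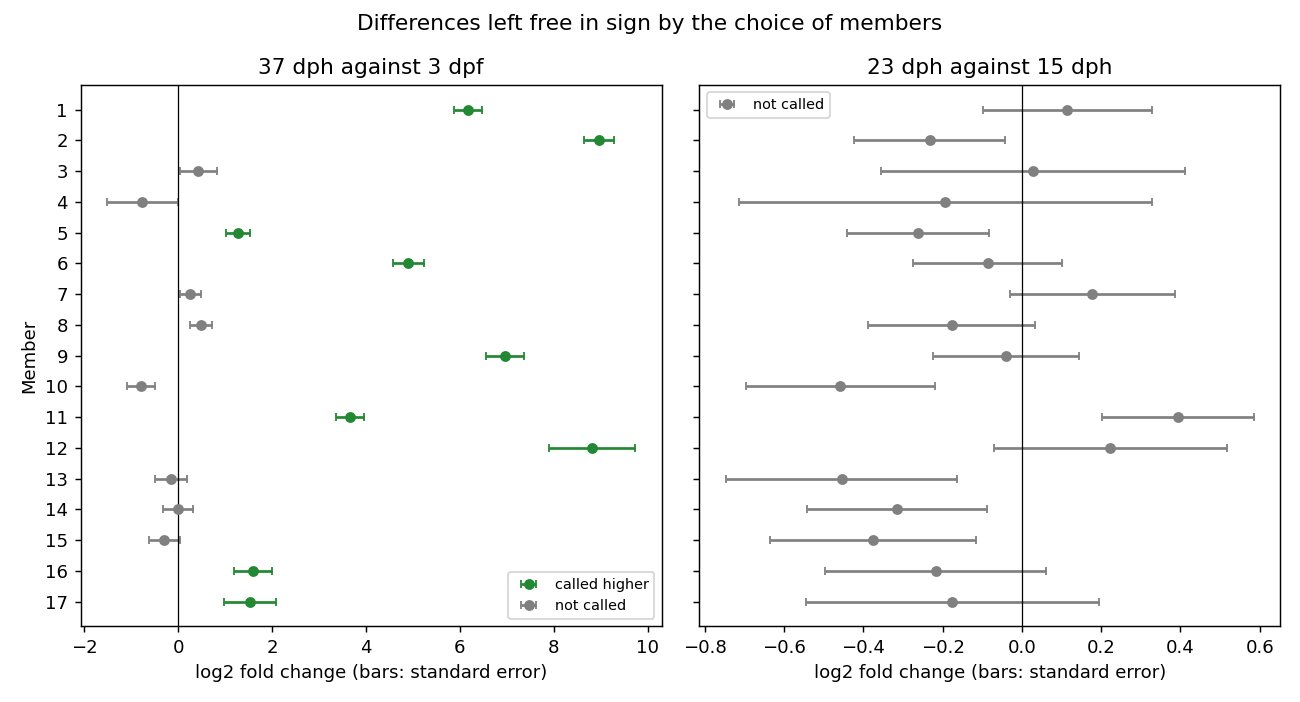
Log2 fold change from edgeR (horizontal axis) with its standard error for each of the 17 members (vertical axis), 37 dph against 3 dpf on the left and 23 dph against 15 dph on the right, with members called higher in green and members not called in grey. On the left 9 members are called higher, from 1.28 in member 5 to 8.96 in member 2, and on the right the 17 values lie between -0.46 and 0.39. The fitted values of members 9 and 12 rest on 2 and 0 counts at 3 dpf.

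In 6 of the 9 members the 37 dph mean was over 10 times the 3 dpf mean, and the 3 dpf libraries held few reads or none. The choice of genes set no lower limit at 3 dpf or 37 dph. Neither this count nor those below, of members near absent at 3 dpf or alike at both ends, was made over all genes. Member 2 had 5.99 and 3.12 normalized counts at 3 dpf, 7996 and 8470 at 15 dph, 6261 and 7854 at 23 dph, and 2480 and 1986 at 37 dph. Member 1 had 19.96 and 20.3 at 3 dpf, 8054 and 8418 at 15 dph, 9216 and 8733 at 23 dph, and 1805 and 1095 at 37 dph. In both genes the 37 dph libraries lay far above those of 3 dpf. The log2 fold change of 37 dph against 3 dpf was 8.96 in member 2 (standard error 0.32, adjusted p = 8.2e-09 in the edgeR test) and 6.17 in member 1 (standard error 0.30, adjusted p = 4.7e-08).

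At 37 dph both genes kept part of their larval count. The 37 dph mean was 31.6% of the 23 dph mean in member 2 and 16.2% in member 1. Member 6 stood at 5.99 and 3.90 normalized counts at 3 dpf, 1010 and 1119 at 15 dph, 1040 and 978 at 23 dph, and 115 and 174 at 37 dph. Its 4 libraries of 15 and 23 dph spanned only 978 to 1119. The 37 dph mean was 14.3% of that at 23 dph and 29.2 times that at 3 dpf.

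Member 11 had the largest difference between 23 and 15 dph in the upward direction, with both 23 dph libraries above both 15 dph libraries. It had 6.99 and 8.57 normalized counts at 3 dpf, 330 and 302 at 15 dph, 388 and 448 at 23 dph, and 117 and 86.4 at 37 dph. The log2 fold change between 37 dph and 3 dpf was 3.66 (standard error 0.30, adjusted p = 1.8e-06 in edgeR). Members 9 and 12 were at or near the limit of detection at 3 dpf. Member 9 had 1 count in each 3 dpf library, then 497 and 473 normalized counts at 15 dph, 407 and 544 at 23 dph, and 115 and 131 at 37 dph. Over the pooled counts, 37 dph stood at 143 times 3 dpf, with an exact 95% interval from 39.0 to 1185 that covers counting error only.

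Member 12 was not detected at 3 dpf, with 0 counts in both libraries. It had 150 and 239 normalized counts at 15 dph, 269 and 188 at 23 dph, and 44.9 and 63.1 at 37 dph. With 3 counts allowed per 3 dpf library, the 37 dph mean was at least 20.3-fold higher, the 23 dph mean at least 85.6-fold higher and the 15 dph mean at least 73.0-fold higher than at 3 dpf. No member was at 3 counts or fewer in both 37 dph libraries, so counts at the limit of detection in both libraries of a stage were seen at 3 dpf and not at 37 dph.

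The other 3 members called higher at 37 dph differed less between the ends. Member 5 had 36.9 and 21.8 normalized counts at 3 dpf, 1297 and 1271 at 15 dph, 1132 and 1022 at 23 dph, and 67.3 and 71.8 at 37 dph. It was the member with the widest gap between single libraries, the lowest of the plateau being 14.2 times the highest outside it. Its log2 fold change between 37 dph and 3 dpf was 1.28 (standard error 0.25, adjusted p = 0.0011 in edgeR), and 0.78 with library totals, below the minimum fold. Leaving out replicate 2 of 3 dpf also took it below that minimum.

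Members 16 and 17 had the lowest larval counts of the 17. Member 16 had 9.98 and 10.9 normalized counts at 3 dpf, 155 and 122 at 15 dph, 90.3 and 151 at 23 dph, and 34.4 and 29.1 at 37 dph. Member 17 had 3.99 and 8.57 at 3 dpf, 71.7 and 54.4 at 15 dph, 45.7 and 67.2 at 23 dph, and 10.5 and 25.2 at 37 dph. The log2 fold change was 1.58 in member 16 (standard error 0.41, adjusted p = 0.0052 in edgeR) and 1.53 in member 17 (standard error 0.56, adjusted p = 0.031). The call of member 17 was lost with library totals, without replicate 1 of 3 dpf and without replicate 2 of 37 dph.

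The remaining 8 members had reads at both ends of the series, with means from 25.6 to 421 at 37 dph and from 26.3 to 318 at 3 dpf. Their 37 dph and 3 dpf means were within 2-fold of each other. A p that misses the threshold does not show that the 2 ends were equal, and the log2 fold changes ran from -0.79 to 0.49. Member 4 had 64.9 and 50.6 normalized counts at 3 dpf, 1029 and 1513 at 15 dph, 369 and 1877 at 23 dph, and 32.9 and 34.0 at 37 dph. Member 10 had 51.9 and 99.7 at 3 dpf, 446 and 447 at 15 dph, 310 and 345 at 23 dph, and 43.4 and 44.6 at 37 dph. These were the 2 members with both 37 dph libraries below both 3 dpf libraries. The log2 fold change was -0.77 in member 4 (standard error 0.75, adjusted p = 0.38 in edgeR) and -0.79 in member 10 (standard error 0.30, adjusted p = 0.036), the second short of the minimum fold. The fit shares its estimate of spread over all stages, so the 23 dph libraries of member 4, 5.08-fold apart, enter its standard error. The replicates of member 4 differed 1.28-fold at 3 dpf and 1.03-fold at 37 dph. Member 10 was called lower with library totals and without replicate 1 of 3 dpf.

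Member 4 combined the deepest end with the poorest replication. Its smaller larval mean was 19.4 times the larger mean outside the plateau, the largest fold of the 17, and the 37 dph mean was 2.98% of that at 23 dph. Its 2 libraries of 23 dph differed 5.08-fold, against a median of 1.17-fold over the members at this stage. The mean of 1123 ± 1066 (SD, n = 2) that placed it on the plateau therefore lay between 2 unlike libraries, and both lay above every library of 3 dpf and 37 dph.

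Among the 8 members not called, members 3 and 7 had the highest mean normalized counts at 3 dpf and at 37 dph. Member 3 had 239 and 396 normalized counts at 3 dpf, 1769 and 1659 at 15 dph, 1588 and 1931 at 23 dph, and 209.5 and 632 at 37 dph. Member 7 had 264 and 222 at 3 dpf, 968 and 966 at 15 dph, 1039 and 1163 at 23 dph, and 218 and 354 at 37 dph. In both genes the 37 dph libraries lay on either side of those of 3 dpf. The 37 dph libraries of member 3 differed 3.01-fold, the widest of any member at that stage. Member 8 had 114 and 95.04 at 3 dpf, 540.1 and 643 at 15 dph, 495 and 558 at 23 dph, and 179.6 and 115 at 37 dph. Its 37 dph values lay above those at 3 dpf by a small margin, and the difference was 0.49 on the log2 scale (edgeR standard error 0.24, adjusted p = 0.088).

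Members 13, 14 and 15 were alike in course, with about the same count at both ends and a lower mean at 23 dph than at 15 dph. Member 13 had 70.9 and 44.4 normalized counts at 3 dpf, 182 and 301 at 15 dph, 164 and 191 at 23 dph, and 43.4 and 57.2 at 37 dph. Member 14 had 29.9 and 22.6 at 3 dpf, 182 and 223 at 15 dph, 149 and 179 at 23 dph, and 23.9 and 27.2 at 37 dph. Member 15 had 32.9 and 44.4 at 3 dpf, 169 and 157 at 15 dph, 119 and 134 at 23 dph, and 41.9 and 23.3 at 37 dph. In all 3 the libraries of 37 dph and 3 dpf overlapped, and the log2 fold changes were -0.16, -0.01 and -0.30 for members 13, 14 and 15, with standard errors of 0.35, 0.32 and 0.33.

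Between 23 dph and 15 dph the choice of genes capped the size of a difference but not its sign. The means at 23 dph were 0.733 to 1.32 times those at 15 dph, with a median of 0.891, and were lower in 12 members and higher in 5. The same split was not counted over all genes, here or with library totals below. In edgeR's quasi-likelihood test 0 members were higher and 0 lower at 23 dph at an adjusted p under 0.05 with no minimum fold, against 1.88% and 0.274% of all 18987 genes. At an unadjusted p under 0.05 there were 0 members in either direction, against 10.9% of all genes higher and 7.38% lower. DESeq2 called 0 members in either direction, against 4.13% and 0.704% of the genes it tested. The cap of 1.4-fold leaves little room for a call, and the genes set beside the members were not capped. The counts of 0 therefore do not show that the members were steadier than other genes. The standard errors of the members' log2 fold changes ran from 0.18 to 0.52, and the median log2 fold change was -0.18, against 0.00 over all genes.

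Both 23 dph libraries were above both 15 dph libraries in 3 members and below them in 5, against 33.2% and 30.8% of all genes, and the libraries overlapped in 9 members. The 3 were members 1, 7 and 11, and the 5 were members 2, 5, 10, 14 and 15. With library totals in place of size factors, 16 members were lower at 23 dph and the median ratio was 0.715. Over all genes the median in edgeR then stood at -0.31 and that of the members at -0.49. With this scaling 0 members were called at an adjusted p under 0.05, against 0.748% of all genes higher and 0.337% lower, while 7 members were lower at an unadjusted p under 0.05, against 23.1% of all genes. With replicate 2 of 23 dph left out, member 4 stood at -1.80 on the log2 scale, since the 23 dph library that remained was the one at 369.

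How far replicates of a stage stood apart was not used directly in the choice of genes, which used their means. The median size of the log2 ratio between replicates, on normalized counts plus 1, over the members was 0.39 for 3 dpf, 0.13 for 15 dph, 0.22 for 23 dph and 0.43 for 37 dph. Over 18588 genes with a mean of at least 10 it was 0.34, 0.13, 0.16 and 0.26 at the same stages. These genes were not matched to the members for count, and the choice held the members low at 3 dpf and 37 dph. At 23 dph 13 of the 17 members were higher in replicate 2 and 4 in replicate 1, against 50.7% of all genes higher in replicate 2. At 15 dph the split was 9 and 8, at 37 dph 11 and 6, and at 3 dpf 7 and 9, with member 12 at 0 in both 3 dpf libraries. Of all genes, 47.1% were higher in replicate 2 at 15 dph, 48.3% at 37 dph and 48.7% at 3 dpf. Whether the choice of genes favours 1 replicate of a stage was not tested. Members of 1 library share that library, so these splits were not tested.

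Leaving out 1 library at a time and applying the limits again showed which members depended on a single library. Members 1, 5, 6, 9 and 14 met the limits in all 8 cases, and the other 12 failed in at least 1. Replicate 2 of 23 dph mattered most. Without it 6 of the 17 no longer qualified, namely members 2, 4, 10, 13, 16 and 17. Without any 1 of the other libraries, 1 to 3 members no longer qualified. Members 11 and 13 each failed in 3 of the 8 cases, more than any other member.

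**Figure D4:**
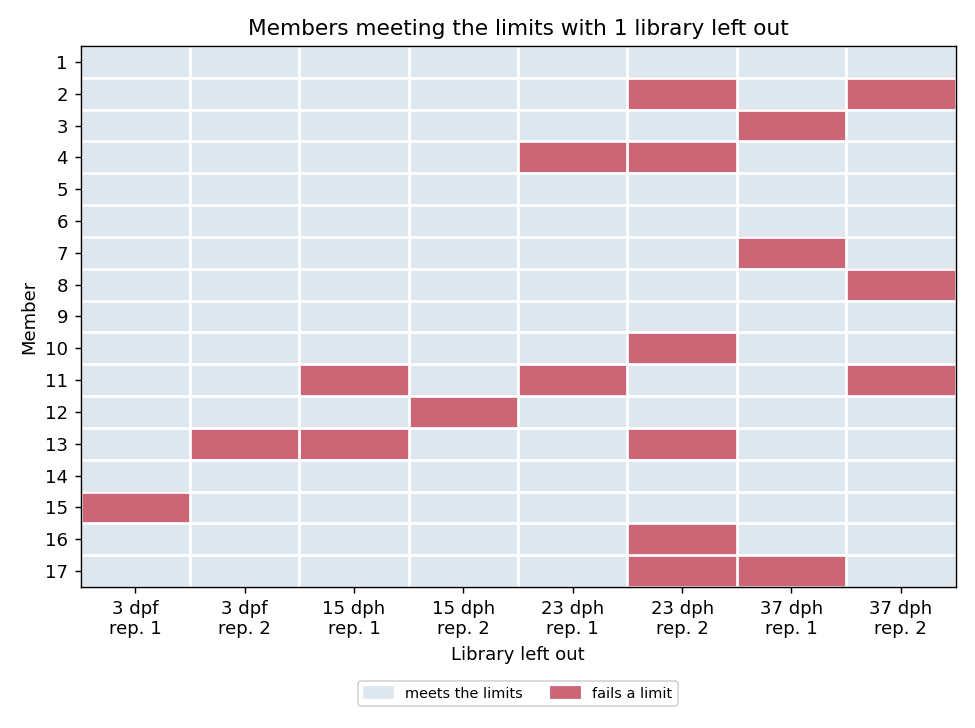
Result of applying the limits again with 1 library left out (horizontal axis, by stage and replicate) for each of the 17 members (vertical axis), with pale cells where the member still met the limits and red cells where it failed at least 1 of them. Members 1, 5, 6, 9 and 14 have no red cell, and the column of replicate 2 of 23 dph has 6.

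The scaling decided about as many memberships. With TMM library sizes all 17 members qualified and 1 gene was added. With plain library totals 9 of the 17 qualified and 14 other genes entered. The 8 that dropped out all exceeded the 1.4-fold limit between 15 and 23 dph, where the largest ratio reached 1.70, and 2 of them also fell under the 3-fold limit. Under all 3 scalings the 4 libraries of 15 and 23 dph stayed above the 4 others in each of the 17 members.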

How the data were processed

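Poly(A)-selected, stranded libraries of 8 turbot were sequenced in pairs. After adapter removal (Trimmomatic), the authors used STAR for mapping to the assembly ASM1334776v1 and HTSeq-count for counting, and deposited raw counts per gene for each library, unnormalized and with replicates kept apart. The strand setting and annotation release of the counting are not given in the sources used here. The 5 summary entries that name no gene in each table were left out. Of aligned entries, 15.3% to 18.9% had no feature and 1.63% to 2.57% were ambiguous, and entries not aligned were 48.7% to 49.3% of a table. The paper reports that a large majority of clean reads mapped in every library, so this last share should not be read as the share of unmapped reads. Why the 2 differ was not examined.

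Tests used edgeR 4.0.16 in R 4.3.3 on all 8 libraries with 1 mean per stage, TMM and filterByExpr, with Benjamini-Hochberg adjustment over 18987 genes. The threshold was an adjusted p under 0.05, with a minimum log2 fold change of 1 for 37 dph against 3 dpf and no minimum for 23 dph against 15 dph. The standard error is the log2 fold change divided by the root of the F statistic. DESeq2 1.42.0, other normalizations and filters, each library left out, and the replicate number as a block were alternatives, and library totals alone were added for edgeR after the data were seen. The edgeR step was also run on simulated data that gave every gene the same spread between replicates and used changes larger than the 1.4-fold cap. The real data differ in both, and the outcome is not used as support here. Ratios against 1 to 3 counts have Clopper-Pearson 95% intervals, and a count of 0 allows up to 3 counts per library. The members and comparisons were chosen with earlier results of these data known. Where identifiers have no symbol, at most 4 could be named, the 2 members called higher and the 2 called lower at 37 dph than at 3 dpf with the largest change, no overlap of libraries and more than 3 counts in each, and 2 met this rule. The planned gene lists need symbols and were not used here.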

Additional observations from a re-analysis of the deposited data

How the results depend on the processing

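Of 115 values recomputed under alternatives, 105 stayed within 1.5 times a count, within the replicate SD of a share or on the same side of the threshold. Numbers of genes meeting the limits were compared without regard to which genes they were. Library totals, with 23 genes of which 9 were among the 17, therefore count among the 105. So do the counts of 0 members called at 23 dph against 15 dph, where the 1.4-fold cap leaves little room. The other 10 values are given here, were shares of the library without its 20 most abundant genes, or came from fits with 1 library left out. The causes were not tested unless the setting gives them. With at least 10 counts in every library, 11 members could be tested and 3 were higher at 37 dph than at 3 dpf, 27.3% against 24.3% of all genes, where the main values were 52.9% and 27.8%. Members lower at 37 dph numbered 1 with no minimum fold, against 33.4% of all genes, and 1 with library totals alone, against 34.7% of all genes. With each replicate left out, the median log2 fold change of 37 dph against 3 dpf was 0.76 to 1.33 over the members. Over all genes it was -0.02 to 0.07. For 23 dph against 15 dph the medians were -0.27 to -0.05 over the members and -0.01 to 0.01 over all genes. In those fits a stage with 1 library is assumed to vary like the others. The limits gave 84 genes at 2-fold and 7 at 4-fold, and 14 to 23 with each library left out, of which 11 to 16 were among the 17. The replicate numbers only name fish of different stages. The ratios of replicate 2 to replicate 1 correlated between stages at r from -0.14 to 0.23 across genes. With a replicate block 9 members were higher and 0 lower at 37 dph, against 27.8% and 20.6% of all genes. In the same fit 0 members were called at 23 dph, against 2.35% of all genes higher and 0.311% lower. The member counts were the same without the block. Each stage has 2 libraries, too few to test a single library as an outlier.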

Other observations

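Members with a higher ratio of 37 dph to 3 dpf tended to have a higher ratio of 23 dph to 15 dph, as did genes at large. All 4 stage means were used in the choice of members, which also capped the difference between 23 and 15 dph at 1.4-fold. Across the 17 members, which share all 8 libraries and their scaling, Pearson's r between the 2 log2 ratios was 0.44 and Spearman's rho 0.56. For the members, 1 was added to the 37 dph and 3 dpf means before their ratio was taken. The ratio of member 12, with 0 counts at 3 dpf, depends on that addition. Across the 18587 genes averaging 10 or more normalized counts the values were 0.44 and 0.35. Genes are not independent replicates, and no test was made.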
